A study of Mus musculus with 8 samples.

Results

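The genes described here are the 4 fibroblast growth factor (FGF) receptor genes with a tyrosine kinase, Fgfr1, Fgfr2, Fgfr3 and Fgfr4, the gene of the kinase-less receptor Fgfrl1, and 5 genes of FGF ligands of embryonic stem cells and early embryos, Fgf2, Fgf4, Fgf5, Fgf8 and Fgf15. They are 10 of 21951 protein-coding genes in GENCODE release M21. They were chosen by name and not by any measured value, though with earlier results of these data known. The data were ChIP-seq peak lists, which mark where DNA pulled down by an antibody against a chromatin protein piled up along the genome, from E14Tg2a, a line of mouse embryonic stem cells used between passages 37 and 40. Pluripotent cells (ESCs) were kept with leukemia inhibitory factor (LIF). Neuronal cells (NCs) were monolayers without LIF, kept in retinoic acid (RA) at 1 µM over 48 h. The antibodies were against FGFR1, the nuclear receptors RXR and Nur77, and, in NCs, the histone variant H3.3. All cells were of 1 line, with no altered allele named, and plates were pooled for each immunoprecipitation. FGFR1 in NCs had 2 libraries, the second labelled as a second experiment, and the other 6 of 7 groups had 1 library each. With this design no difference between ESCs and NCs could be tested, and all values below are descriptions of 8 peak lists.

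Most FGFs are secreted ligands that bind receptor tyrosine kinases together with heparan sulfate, and the receptors signal through the adaptor FRS2, RAS and the MAP kinases. In ESCs, FGF4 is the main ligand made by the cells themselves and its signal primes them to leave pluripotency. FGF5 marks the primed state that follows, and FGF8 and FGF15 pattern the embryo and its nervous system. FGFR1 itself also occurs in the nucleus, so that its own gene and the genes of its ligands were among the places where an FGFR1 peak could lie. The question was where the 4 antibodies gave peaks at these genes and whether those places differed between ESCs and NCs.

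Peaks were taken from 20 kb upstream of each gene to 5 kb past its end. Each peak has a fold, the ratio of fragments at its summit (its highest point) to the local background, with a constant added to both. It also has a −log10 p, which grows with both the fold and the depth of the library. The constant lowers the fold more where the background is low, so folds from libraries of unlike depth are not plain ratios. A promoter peak shared at least 20 bp with the region within 1000 bp of any annotated transcript start of the gene. The lists held 10634 to 46137 peaks. Depth was not stated in the files and was inferred from them as a background density, which ran from 1.27 fragments per kb for H3.3 to 7.09 for RXR in LIF. Between these, it was 2.71 for FGFR1 in LIF, 4.16 and 6.78 for FGFR1 in RA (replicates 1 and 2), 1.87 for RXR in RA, 4.98 for Nur77 in LIF and 3.82 for Nur77 in RA. An alternating run of purines and pyrimidines of at least 20 bp, called a tract here, lay in 1.26% of the peaks of FGFR1 RA replicate 2 and in 21.1% to 51.7% of the peaks of the other 7 libraries.

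In all, the windows held 71 peaks, 45 at the receptor genes and 26 at the ligand genes. Fgfr1 alone held 27 of them, 13 of these at 1 repeat site described below, and was the only member with a peak in all 8 libraries. Without the peaks that held a tract, Fgfr1 had none for RXR in NCs. Peaks of different libraries that shared at least 1 bp were joined into 37 sites, of which 24 were found in 1 library and 13 in 2 or more. Sites in both ESCs and NCs numbered 11. Promoter peaks made up 36 of the 71.

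The sequences under 6 of these sites are printed here because they show what the main groups of peaks lie on. They are taken from the GRCm38 (mm10) genome and are written 5′ to 3′ on the strand of the named gene. In the Fgfr1 lines, capitals mark the longest tract. In the other lines, capitals mark GGGCGG, the core of an Sp1 box, and CACGTG, the E-box, where present, and lines with neither are in lower case throughout. Peaks at the starts of Fgfr2, Fgfr3, Fgfr4, Fgf2 and Fgf8 are described without their sequence. At Fgfr3, Fgfr4 and Fgf8 their summits lay in a leader exon. At Fgfr2 they lay in a leader exon or an exon of a non-coding transcript, and at Fgf2 in a coding exon or an intron.
Fgfr1, upstream, Nur77 RA peak, chr8:25502483-25502586, plus strand: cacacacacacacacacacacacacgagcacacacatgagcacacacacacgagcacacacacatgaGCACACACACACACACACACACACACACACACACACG
Fgfr1, downstream in Letm2, RXR RA peak, chr8:25578849-25578995, plus strand: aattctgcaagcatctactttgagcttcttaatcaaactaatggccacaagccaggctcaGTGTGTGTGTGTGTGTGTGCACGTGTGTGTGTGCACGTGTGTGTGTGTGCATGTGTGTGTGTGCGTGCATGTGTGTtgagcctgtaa
Fgfr2, upstream, FGFR1 RA replicate 2 peak, chr7:130273338-130273490, minus strand: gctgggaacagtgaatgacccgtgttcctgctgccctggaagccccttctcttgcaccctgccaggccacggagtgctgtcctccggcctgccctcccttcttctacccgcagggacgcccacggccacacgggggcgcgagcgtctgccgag
Fgfrl1, promoter, FGFR1 RA replicate 2 peak, chr5:108693950-108694145, plus strand: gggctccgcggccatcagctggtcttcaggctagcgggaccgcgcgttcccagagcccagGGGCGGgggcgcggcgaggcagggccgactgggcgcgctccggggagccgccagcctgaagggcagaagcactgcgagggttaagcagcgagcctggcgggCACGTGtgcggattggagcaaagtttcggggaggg
Fgf4, promoter, upstream part of the FGFR1 RA replicate 2 peak, chr7:144861190-144861385, plus strand: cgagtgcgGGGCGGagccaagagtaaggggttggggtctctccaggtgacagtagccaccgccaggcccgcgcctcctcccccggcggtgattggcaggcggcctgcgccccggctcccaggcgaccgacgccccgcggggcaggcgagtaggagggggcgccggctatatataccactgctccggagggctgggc
Fgf5, upstream, RXR RA peak, chr5:98253869-98253984, plus strand: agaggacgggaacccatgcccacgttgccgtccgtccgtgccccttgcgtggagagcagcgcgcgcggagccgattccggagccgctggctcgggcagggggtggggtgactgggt

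**Figure D1:**
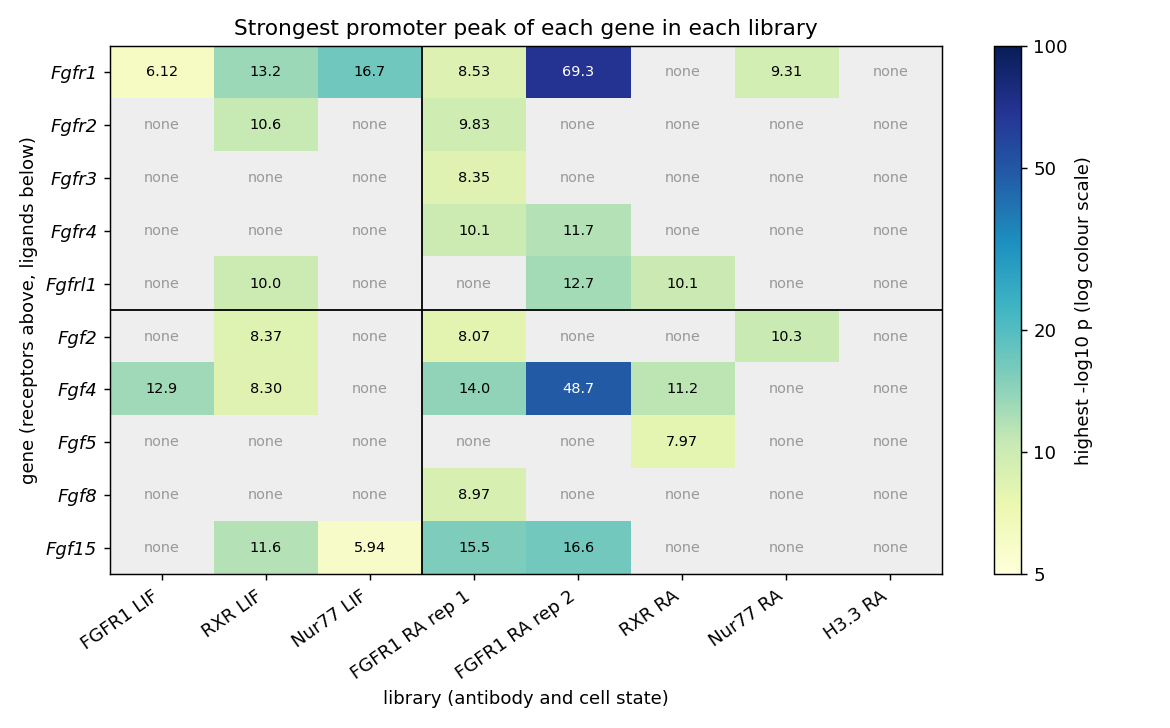
Highest −log10 p among the promoter peaks of each gene (rows, receptors above and ligands below) in each of 8 libraries (columns, ESCs left and NCs right of the vertical line), on a log colour scale; "none" marks a gene without a promoter peak. The 2 highest values, 69.3 at Fgfr1 and 48.7 at Fgf4, were both in FGFR1 RA replicate 2, and H3.3 had no promoter peak at any of the 10 genes.

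With the FGFR1 antibody, promoter peaks were found at 2 of the 10 genes in ESCs, Fgfr1 and Fgf4, beside 17% of all protein-coding genes. In NCs they were found at 8 of 10 in replicate 1 (50.7% of all protein-coding genes) and at 5 of 10 in replicate 2 (49.6%). Fgfr1, Fgfr4, Fgf4 and Fgf15, 4 of 10, had one in both NC libraries (39.5% of protein-coding genes), and at each of these 4 genes a peak of one library shared bases with a peak of the other. Fgfr2, Fgfr3, Fgf2 and Fgf8 had a promoter peak in replicate 1 and none in replicate 2, and Fgfrl1 the converse. Fgf5, the ligand of primed cells, had no FGFR1 peak in its window in any of the 3 FGFR1 libraries. The shares in replicate 2 and in both libraries were near those of genes at large, so that they were no result about the members.

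The count in replicate 1 fell when its list was shortened, and that of replicate 2 stayed the same. When each list was cut to its 11378 strongest peaks, the number in ESCs, replicate 1 kept 1 of the 10 genes and replicate 2 kept 5. When both were scaled to the depth of the ESC library instead, replicate 1 kept 8 and replicate 2 kept 5. The shares of all protein-coding genes under these settings were not determined.

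RXR, the shared partner of the retinoic acid receptors and of Nur77, had promoter peaks at 6 of the 10 genes in ESCs (42.5% of protein-coding genes), namely Fgfr1, Fgfr2, Fgfrl1, Fgf2, Fgf4 and Fgf15. In NCs it had them at 3 (23.3%), Fgfrl1, Fgf4 and Fgf5. The RXR library from ESCs was the deeper, and scaled to the depth of the NC library it kept none of the 6, which turned the direction of the difference. The share of all protein-coding genes after scaling was not determined, so the turn is no result about these genes. Nur77, an orphan nuclear receptor, had promoter peaks at 2 genes in ESCs, Fgfr1 and Fgf15 (25.5%), and at 2 in NCs, Fgfr1 and Fgf2 (25.8%). H3.3, a variant histone placed at active genes, had none at the 10 genes (15.5%), in the shallowest of the 8 libraries.

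Over the whole windows, FGFR1 peaks were found at 2 of 10 genes in ESCs (37.4% of protein-coding genes), and in NCs at 8 in replicate 1 (73.8%) and 7 in replicate 2 (60.2%). RXR peaks were found at 8 in ESCs (64.9%) and 4 in NCs (44.7%), Nur77 peaks at 3 (53.5%) and 4 (56.3%), and H3.3 peaks at 2 (35%). The Fgf8 window shows why a window count is the weaker measure. Of its 4 peaks, 3 lay at the starts of Npm3, a nucleolar chaperone gene, and of the transcript Gm15491, 6060 to 6657 bp upstream of the nearest Fgf8 start.

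**Figure D2:**
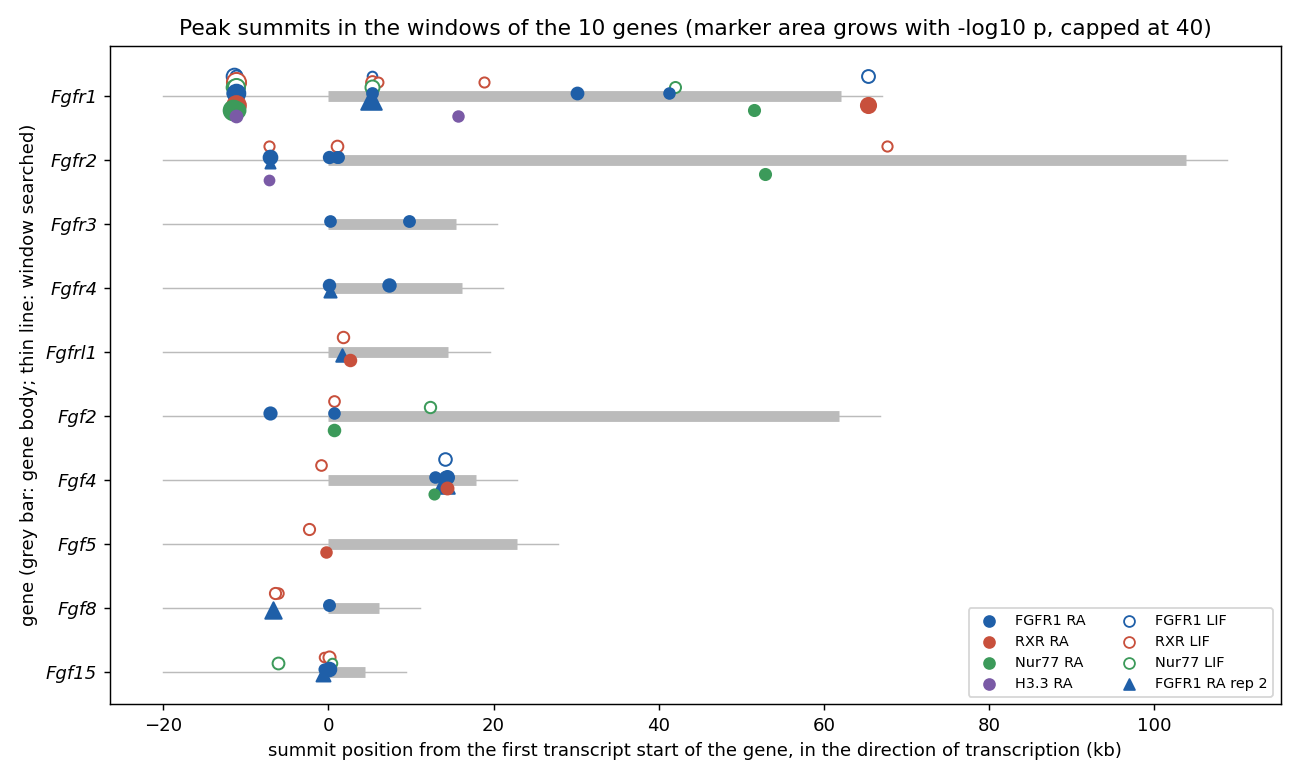
Summits of all 71 peaks in the windows of the 10 genes, by distance in kb from the first annotated transcript start in the direction of transcription; colours give the antibody, open markers ESCs, filled markers NCs, triangles FGFR1 RA replicate 2, and marker area grows with −log10 p up to 40. The pile of markers 11 kb upstream of Fgfr1 holds 7 libraries and no triangle, while the triangle of the Fgfr1 promoter stands with markers of 4 other libraries.

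Fgfr1 lies on chromosome 8 (25513654-25575718, plus strand) with 18 different transcript starts. A cluster of these lies between 25518759 and 25518895, and the site at these starts (chr8:25518667-25518981) held 1 peak in each of 5 libraries. Its −log10 p was 6.12 for FGFR1 in ESCs, 13.2 for RXR in ESCs, 16.7 for Nur77 in ESCs, 8.53 for FGFR1 RA replicate 1 and 69.3 for replicate 2. RXR, Nur77 and H3.3 had no peak at this site in NCs. The summits of the 5 peaks lay within 39 bp of a start, in the leader exon. Seen from single transcripts, the summit of replicate 2 was 75 bp past the start of ENSMUST00000084027.12 and 5180 bp past the most upstream one, of ENSMUST00000155564.7.

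The FGFR1 peaks at the Fgfr1 start differed more between the NC libraries than between states. The fold was 4.71 in ESCs, 5.83 in replicate 1 and 17.0 in replicate 2, with 7, 10 and 72 fragments inferred at the summit. The inferred backgrounds were 0.699, 0.885 and 3.29 fragments. The NC mean of 11.4 ± 7.91 (SD, n = 2) exceeded the ESC value by 6.72, which was less than the SD. By −log10 p this peak ranked 537 of 14082 in replicate 2, 39265 of 46137 in replicate 1 and 11311 of 11378 in ESCs, so it was among the strong peaks of the one list and among the weakest of the others.

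The most widely shared site of all 10 genes lay 11105 to 11551 bp upstream of the first Fgfr1 start (chr8:25502047-25502598), between genes. It held 13 peaks from 7 libraries, all but FGFR1 RA replicate 2. The highest −log10 p there in ESCs was 34.1 with RXR, 26.5 with Nur77 and 21.7 with FGFR1. In NCs it reached 36.1 with Nur77, 32.6 with RXR, 28.3 in FGFR1 RA replicate 1 and 10.7 with H3.3. In each of these 7 libraries this was the strongest peak in the windows of the 10 genes. The site is a CA repeat, masked as a repeat over 100% of its length, with a longest tract of 59 bp, in the RXR peak of NCs. The first sequence printed above is a part of it, under the weaker Nur77 peak of NCs (−log10 p 22.6), with a tract of 37 bp. The site gave peaks with 4 antibodies and was absent from the library with the fewest tract peaks, and the part of the repeat in these values was not tested.

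A second tract site lay downstream of Fgfr1 in an intron of Letm2, a mitochondrial membrane protein gene (chr8:25578849-25579058). FGFR1 in ESCs had a −log10 p of 13.6 there and RXR in NCs 20.02, on the GT repeat printed above, whose tract was 76 bp long. The remaining Fgfr1 peaks were each in 1 library. RXR in ESCs had one at 25519645 (−log10 p 6.79) and one at 25532493 (7.17), both within 212 bp of an internal start. Nur77 in ESCs had one 43 bp past the internal start at 25555617 (9.12), and Nur77 in NCs one 834 bp before the internal start at 25566000 (9.31), which is the peak that placed Fgfr1 among the Nur77 promoters in NCs. FGFR1 RA replicate 1 had single peaks at 25543722 (10.9) and 25554875 (8.06), and H3.3 one at 25529315 (7.86).

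Fgfr2, which mediates epithelial FGF signals, lies on chromosome 7 (130162451-130266263, minus strand). In the annotation 1 of its transcripts starts far away at 133123350, beside Ctbp2. With it the gene would span 2960900 bp, its window would take in transcript starts of 70 other genes and 356 peaks, so it was left out, a choice made after the peaks had been seen. Without it the window held 10 peaks. FGFR1 RA replicate 1 had 4, of which 1 lay among the most upstream starts (−log10 p 9.83, summit 5 bp before the start of ENSMUST00000122054.7) and 1 lay 957 bp past a start (8.68). RXR in ESCs had a peak at the same internal place (10.6, 968 bp past the start).

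The Fgfr2 site with most libraries was not at a start. It lay 7085 to 7190 bp upstream (chr7:130273315-130273538), in sequence with no masked repeat and no tract, printed above. The −log10 p was 15.8 in FGFR1 RA replicate 1, 6.997 in replicate 2, 7.29 for RXR in ESCs and 6.41 for H3.3 in NCs. Replicate 1 was thus the higher of the pair here, the converse of the Fgfr1 start. The fold was 9.27 in replicate 1 and 4.87 in replicate 2. Neither FGFR1 in ESCs, Nur77 in ESCs nor RXR in NCs had any peak in the Fgfr2 window. Single peaks in introns belonged to RXR in ESCs (7.35) and Nur77 in NCs (9.26).

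Fgfr3, a brake on bone growth, lies on chromosome 5 (33721674-33737068, plus strand) and had peaks in 1 library. FGFR1 RA replicate 1 had a peak 36 bp past a start (−log10 p 8.35, fold 5.35) and one in the gene body at 33731452 (8.68, fold 5.16). Replicate 2, the deeper library by inferred density, had none in the window.

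Fgfr4, the receptor through which FGF15 acts on liver cells, lies on chromosome 13 (55152640-55168759, plus strand) and had FGFR1 peaks in NCs and no other. At its start the −log10 p was 10.1 in replicate 1 and 11.7 in replicate 2, with folds of 6.62 and 6.54. Their mean of 6.58 ± 0.0536 (SD, n = 2) shows the closest pair of folds among the members. The inferred fragments were 11 and 16, over backgrounds of 0.813 and 1.60. With backgrounds this unlike and a constant added to both parts of the fold, near folds do not mean near plain ratios. The summits lay 140 and 256 bp past the start, in the leader exon. Replicate 1 had a second peak in a coding exon at 55160016 (12.5).

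Fgfrl1, whose product binds FGFs but lacks the kinase, lies on chromosome 5 (108692382-108706924, plus strand) with 3 promoter peaks. FGFR1 RA replicate 2 had one 203 bp upstream of a start (−log10 p 12.7, fold 6.61) and RXR in ESCs one 84 bp upstream (10.0, fold 5.75). These 2 shared bases, and the stretch they share holds the E-box marked in the sequence above. RXR in NCs had its peak elsewhere, 550 bp past a start in a coding exon (10.1, fold 6.65). The RXR peaks in ESCs and NCs at this gene were therefore at 2 different sites.

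Fgf4 lies on chromosome 7 (144847367-144865243, plus strand), with an upstream start at 144847367 and a downstream start at 144861386, named the main start here because the RefSeq promoter table uses it. The site at the main start (chr7:144861190-144861811) held 5 peaks from 4 libraries. FGFR1 had a −log10 p of 12.9 in ESCs, of 9.29 and 14.0 in replicate 1 (a pair of peaks, 113 and 370 bp past the start) and of 48.7 in replicate 2, and RXR had 11.2 in NCs. The fold of the strongest FGFR1 peak was 7.50 in ESCs, 8.17 in replicate 1 and 14.3 in replicate 2, at 15, 15 and 53 inferred fragments. In replicate 1 this was the peak 370 bp past the start, which shared no base with the FGFR1 peaks of ESCs and replicate 2. The replicate 1 peak that overlapped those had a fold of 6.13 at 11 inferred fragments, below the ESC value. The NC mean of 11.3 ± 4.36 (SD, n = 2) thus takes its values from different places. It was 3.76 above the ESC value, less than its SD. As at Fgfr1, replicate 2 stood apart from both other FGFR1 libraries.

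The sequence upstream of the Fgf4 start, printed above, has 1 GGGCGG at position 9 of the stretch. RXR in ESCs had no peak at the main start. Its promoter peak lay 928 bp before the upstream start (8.30), so that the RXR peaks of ESCs and NCs were again apart. Some 1161 to 1223 bp before the main start, FGFR1 RA replicate 1 (8.06) and Nur77 in NCs (7.16) had peaks on a tract of 60 bp.

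**Figure D3:**
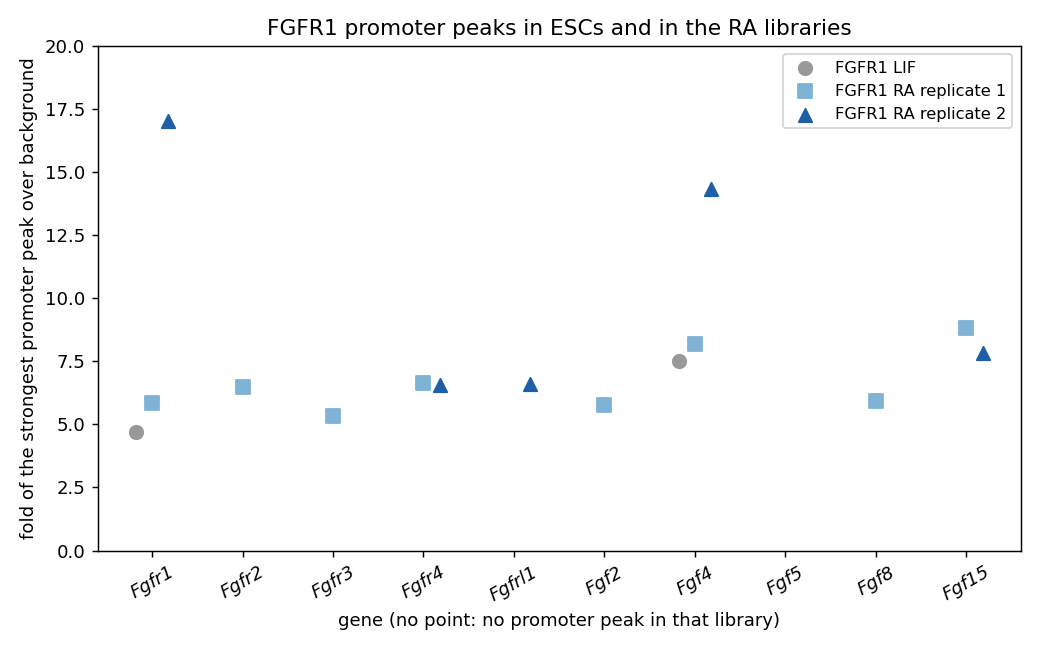
Fold of the strongest FGFR1 promoter peak over background at each gene in ESCs (circles), RA replicate 1 (squares) and RA replicate 2 (triangles), with no error bars since each point is 1 library. At Fgfr1 and Fgf4 the triangle (17.0 and 14.3) stands above the other 2 points. The RA points lie near each other at Fgfr4 and Fgf15, but at Fgf15 they are peaks at different sites. At the Fgf15 site that both RA libraries share, the folds were 5.09 in replicate 1 and 7.83 in replicate 2. The Fgf4 square is likewise a peak that shares no base with that of the triangle.

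Fgf15, the mouse counterpart of human FGF19, lies downstream of Fgf4 on the same strand (chr7:144896531-144900953) and had 2 sites in more than 1 library. The upstream site, 521 to 608 bp before the first start, had a −log10 p of 5.98 for RXR in ESCs, 7.09 for FGFR1 RA replicate 1 and 16.6 for replicate 2. The site at the start, 23 to 24 bp past it, had 11.6 for RXR in ESCs and 15.5 for FGFR1 RA replicate 1, and none for replicate 2. The strongest FGFR1 peaks of the 2 NC libraries, with folds of 8.81 and 7.83, were therefore at different sites of 1 promoter. FGFR1 in ESCs had no peak in the window. Nur77 in ESCs had peaks 444 bp past a start (5.94) and, on a tract, 6110 bp upstream (10.9). The start site also lies within 1 kb of the start of the transcript Gm26793, so that the peaks cannot be assigned to 1 of the 2.

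Fgf2, a ligand with neurotrophic roles, lies on chromosome 3 (37348346-37410108, plus strand). Its promoter site (chr3:37348862-37349132) was shared by 3 antibodies, with a −log10 p of 8.37 for RXR in ESCs, 8.07 for FGFR1 RA replicate 1 and 10.3 for Nur77 in NCs. These peaks had 10, 7 and 10 inferred fragments, and each lay past the 50% mark of its list by −log10 p. They also lay within 1 kb of the start of the transcript Fgf2os. Nur77 in ESCs had a peak in an intron instead (9.85), and FGFR1 RA replicate 1 one 7040 bp upstream (11.9) on masked sequence.

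Fgf5 lies on chromosome 5 (98254184-98277030, plus strand) and had RXR peaks and no other. In NCs the peak lay 294 bp upstream of the start (−log10 p 7.97, fold 5.73, 7 inferred fragments), on the stretch printed last above, and in ESCs 2356 bp upstream (9.49, fold 6.26). Fgf8 (chr19:45736798-45742915, minus strand) had 1 peak of its own, in FGFR1 RA replicate 1, 20 bp past a start (8.97, fold 5.93). The peak of replicate 2 in its window, with a −log10 p of 24.2, lay 19 bp past a start of Npm3.

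The promoter peaks of the members were GC-rich. In the 200 bp around their summits the GC content ran from 57% to 81.5% with a median of 69.2%, against 46% to 59.5% in the 17 peaks that held a tract. The 18 other peaks, with neither a promoter nor a tract, overlapped them, at 45% to 70.5% with a median of 62.8%, and over all peaks the median was 53% to 65.5% by library. None of the 36 promoter peaks held a tract. The 17 tract peaks had a median −log10 p of 15.9 and the promoter peaks one of 9.57. In the top 10% of their lists were 6 of the tract peaks but 1 of the promoter peaks, that of FGFR1 RA replicate 2 at Fgfr1. All 6 lay at the CA repeat upstream of Fgfr1, which also gave most of the 17. These tract values therefore describe mainly 1 place seen in several libraries. GGGCGG, read on either strand, lay in the windows of 11 promoter peaks, several of them at the Fgfr1 start. Over all peaks its share ran from 13.3% for Nur77 in NCs to 50.9% for FGFR1 RA replicate 2. Windows of peaks at 1 site overlap, so the word counts given here are not counts of separate places. AGGTCA, the single word that nuclear receptors read, lay in 3 of the 71 windows (7.16% to 10.3% of all peaks by library). The E-box CACGTG lay in 8 (6.72% to 11.4%), some of them within tracts, and the ETS word CCGGAAGT in 1 of the 71 windows (0.786% to 5.44%). The Nur77 element AAAGGTCA, which contains AGGTCA, the cAMP response element TGACGTCA, the NRF1 word GCGCATGC, the octamer ATGCAAAT and the CTCF word CAGGGGGCG were in none of them; each of these is also rare over all peaks, at most 4.14% in any library.

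The table of RefSeq promoters on GRCm38 (250 bases before to 50 after a start) held 7 of the 10 genes. GGGCGG lay in the promoters of 6 of these, Fgfr3, Fgfr4, Fgfrl1, Fgf2, Fgf4 and Fgf5, beside 35.7% of all 32851 promoters in the table. The Fgfr2 entry held 4 CpG and an E-box, and that of Fgfrl1 held 37 CpG, beside a median of 7 over all promoters. The Fgfr2 entry (chr7:130266759-130267058) lies upstream of every Fgfr2 start used above, the most upstream of which is 130266263. It does not describe the sequence at those starts. There, the 200 bp around the summit of the replicate 1 peak had a GC content of 81.5% and held GGGCGG. These are matches of letters and do not show that a factor was bound.

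The other genes of the pathway give the setting. Of 55 other FGF pathway genes, 12 had an FGFR1 promoter peak in ESCs, 39 in RA replicate 1, 32 in replicate 2 and 27 in both NC libraries, beside the 17%, 50.7%, 49.6% and 39.5% of all protein-coding genes given above. As shares of the 55, the first 3 counts were 21.8%, 70.9% and 58.2%. Among the 17 transducers of the signal, 8 had one in ESCs and 11 in both NC libraries. In replicate 2, Map2k2 and Map2k1, kinases of the MAP kinase chain, had promoter peaks at a −log10 p of 96.9 and 73.9. Of 11 feedback and target genes 9 had one in both NC libraries, led in replicate 2 by the transcription factor genes Egr1 (38.1) and Etv5 (34.6) and the ERK phosphatase gene Dusp6 (33.1).

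Of 17 other genes with an Fgf name, taken without regard to whether the product is secreted, 1 had an FGFR1 promoter peak in ESCs. In RA replicate 1, 10 had one (58.8%) and in replicate 2, 3 had one (17.6%). The 3 had one in both NC libraries, Fgf20 (18.4 in replicate 1 and 36.1 in replicate 2), Fgf18 (10.6 and 21.8) and Fgf11 (6.09 and 7.69). Fgf20 was the one of these with a promoter peak in all 8 libraries. Of 10 co-receptors and proteoglycans, which hold FGFs at the cell surface, none had one in ESCs, 6 had one in replicate 1, 5 in replicate 2 and 4 in both. The highest in replicate 2 were the syndecan genes Sdc4 (91.0), Sdc1 (31.4) and Sdc2 (23.5), of which Sdc2 had none in replicate 1. RXR had promoter peaks at 37 of the 55 genes in ESCs (67.3%) and 15 in NCs (27.3%). The shares of all protein-coding genes were 42.5% and 23.3%. Nur77 had them at 17 in ESCs (30.9%, beside 25.5%) and 14 in NCs (25.5%, beside 25.8%), and H3.3 at 12 (21.8%, beside 15.5%). In NCs the RXR and Nur77 shares were thus near those of genes at large.

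**Figure D4:**
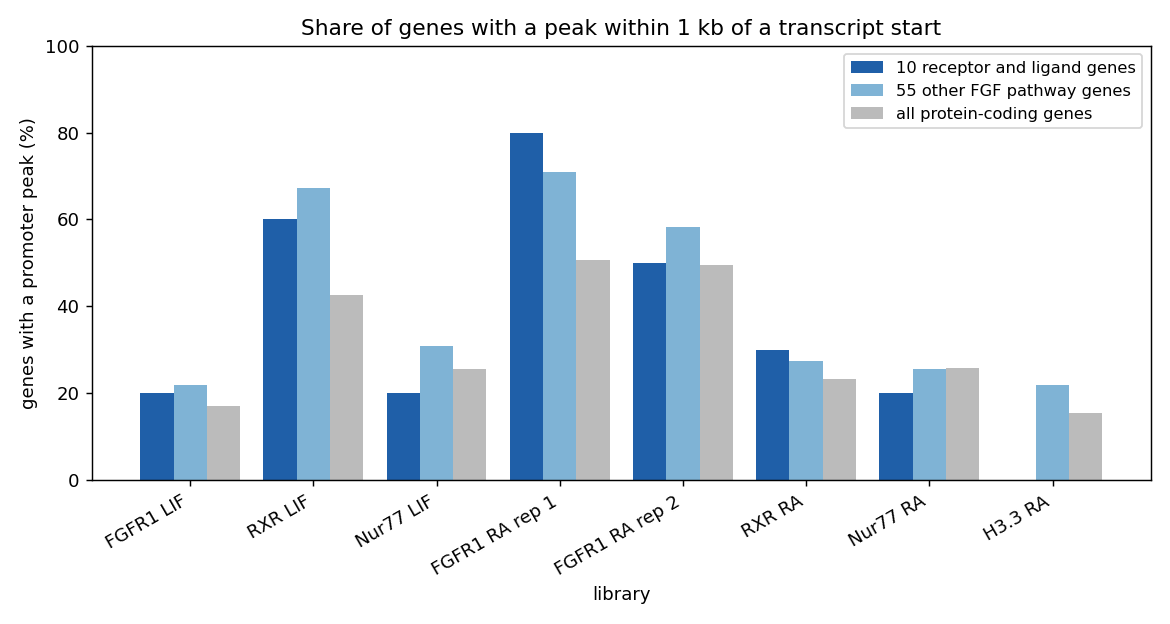
Percent of genes with a promoter peak in each library among the 10 receptor and ligand genes (dark blue), 55 other FGF pathway genes (light blue) and all 21951 protein-coding genes (grey). The grey bars run from 15.5% to 50.7%, and the dark blue bar is above the grey one in some libraries and below it in others, with H3.3 at 0.

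By the pattern of promoter values over the 8 libraries, the genes nearest to Fgfr1 were Opn3 and Chml, which share a promoter region, and Trappc13, at distances of 0.254, 0.254 and 0.274 on the scale of log10(1 + −log10 p). Trappc13 had a −log10 p of 84.5 in FGFR1 RA replicate 2 and 7.28 in ESCs. Nearest to Fgf4 were Nfx1 (0.0651), Atad3a (0.139) and Adprhl2 (0.141). Nearest to Fgf15 were Foxk2, Eml4 and Ect2, to Fgf2 Col4a4, Col4a3 and Fam171a1, and to Fgfrl1 Meiob, Cep44 and Fbxo8. The same set of libraries as at Fgfr1 was found at 222 other protein-coding genes (1.01%), as at Fgf4 at 118 (0.538%), and as at Fgfr4, with both FGFR1 libraries of NCs and no other, at 765 (3.49%).

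The FGFR1 libraries of NCs were also compared peak by peak. Of the 7 peaks of replicate 2 in the windows, 5 were found in replicate 1 (71.4%, 95% exact binomial interval 29.0% to 96.3%, counting error only), beside 58.4% of its whole list. The 2 not found were those at Fgfrl1 and at the start of Npm3. Conversely, replicate 2 held 5 of the 22 peaks that replicate 1 had there (22.7%, and 20.6% of its whole list). With a −log10 p of at least 10 required in both lists, 1 of 6 was found, the Fgfr4 peak.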

How the data were processed

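Per the labels and the study's methods, the authors aligned reads to mm10 with Bowtie 1.0, keeping reads with 1 place in the genome, and ran MACS2 once per library, without pooling, taking peaks with p under 1e-05; no control library is named. The deposited lists give for each peak a fold (ratio of summit pileup to local background, a constant added to both) and a −log10 p. They also give a −log10 q and a score (10 times the −log10 p without decimals). The authors' fold and −log10 p were used here as deposited. The other columns served only as filters or not at all.

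Peaks were assigned to genes of GENCODE M21 in Python 3.11.15 (pandas 2.3.3, numpy 2.4.6, scipy 1.17.1, pysam 0.24.0) by code tested on simulated data. Windows, promoters and sites were as defined in the report. Fragments at each summit were inferred by solving fold and −log10 p together for a whole count, within 0.002 of the deposited −log10 p, and the lowest background divided by the shortest peak width gave the density used as depth. The background shares are over all protein-coding genes. Groups came from sample titles, and no test between groups was possible. All 10 members were named, other pathway genes were counted by role with at most 3 named per role, by −log10 p in FGFR1 RA replicate 2 (1 gene that this rule names is not reported here), and likeness was the Euclidean distance over 8 libraries for members with a promoter peak in at least 3. One gene of the list of feedback genes had no entry in the annotation and was not used. The members and lists were chosen with earlier results of these data known. Words were searched on both strands in the 200 bp around a summit. Alternatives were other limits on p, q, fold, list length and depth, other windows and matching rules, removal of tract peaks, and each FGFR1 RA library left out.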

Additional observations from a re-analysis of the deposited data

Results flagged for a closer look

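The change from ESCs to NCs in the number of the 10 genes with a promoter peak had opposite signs for FGFR1 and RXR. For FGFR1 the number was higher in NCs by 6 in replicate 1 and by 3 in replicate 2, and for RXR the NC value minus the ESC value was -3. All protein-coding genes moved the same way, from 17% to 50.7% and 49.6% for FGFR1 and from 42.5% to 23.3% for RXR, so that the pattern was not particular to these 10 genes. The difference between the antibodies was not tested, since RXR had 1 library in each state. Scaled to equal depth within each pair, the RXR number was 0 in ESCs and 3 in NCs, and the FGFR1 numbers stayed at 2, 8 and 5. The shares of all protein-coding genes given above are unscaled. Whether genes at large also change after scaling was not tested.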

How the results depend on the processing

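No paired analysis was possible because the FGFR1 RA group alone had 2 libraries, and no result came from a test. Leaving out each of them gave 5 to 8 genes with a promoter peak (mean 6.5) and 7 to 8 with a window peak (mean 7.5). The q limit of 2 removed no peak. Removing tract peaks or requiring the summit in the region moved no count by more than 1.5 times. Nor did the annotated Fgfr2 or dropping peaks at another gene's start, both chosen after seeing the data.

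With a −log10 p of at least 10, window counts became 4 for RXR LIF, 2 for Nur77 RA and 1 for H3.3, promoter counts became 1 for FGFR1 LIF, 1 for Nur77 LIF, 3 for FGFR1 RA replicate 1 and 1 for Nur77 RA, and replicate 1 then held 16.7% of the replicate 2 peaks. With a fold of at least 5, the H3.3 window count and the FGFR1 LIF and Nur77 LIF promoter counts became 1. With lists of equal number, window counts became 2 for RXR LIF, 3 for FGFR1 RA replicate 1 and 1 for Nur77 RA, and promoter counts became 2 for RXR LIF, 1 for Nur77 LIF, 1 for FGFR1 RA replicate 1 and 0 for Nur77 RA. These alternatives leave fewer peaks by construction. Shares of all protein-coding genes were not determined under any alternative. Scaled to the shallower library of a pair (chosen after seeing the data), RXR LIF had 1 gene with a window peak and 0 with a promoter peak, and Nur77 LIF 1 with a promoter peak. A window of 5 kb upstream to the gene end gave 1 for H3.3, and a promoter of 500 bp gave 1 for Nur77 RA. The median member peak had 12 inferred fragments.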
